A study of Mus musculus with 125 samples.

Results

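The genes described here are the axon guidance genes of the mouse: the semaphorins of classes 3 to 7, the plexins, the Eph receptors and ephrins, the Unc5 and Robo receptors and the Slit ligands. Members were picked by a rule on gene symbols that uses no measured value, and 62 of the 27998 genes in the single-cell table matched. The set held 13 membrane semaphorins (Sema7a, which has a lipid anchor, among them), 7 secreted semaphorins, 9 plexins, 14 Eph receptors, 8 ephrins, 4 Unc5 receptors, 4 Robo receptors and 3 Slits. All 62 had a position for the chromatin data, where 21887 protein-coding genes could be compared.

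These families were named for steering growing axons, and several of them also guide vessels. Semaphorins signal through plexins, alone or with neuropilins as co-receptors, ephrins on a cell bind Eph receptors on its neighbour and can signal back into their own cell, and Slits bind Robo receptors. In blood vessels Efnb2 is the classical arterial ligand and Ephb4 its venous receptor, Plxnd1 is the endothelial receptor for secreted semaphorins such as Sema3e, Unc5b is a repulsive receptor of arteries and tip cells, and Robo4 is a Robo receptor found mainly in endothelium. These 5 genes were given as the vascular markers of the set.

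Single-cell RNA-seq came from brain cells held on anti-CD31 magnetic beads, with 1 library per age: 3 embryonic ages (E9.5, E12.5, E16.5), pups at P8, and adults aged 2 months. The embryonic libraries were made from brain dissociated with collagenase, and the P8 and adult libraries from cortex dissociated with a commercial neural tissue kit, so that age, region and dissociation cannot be told apart between these groups. Open chromatin was read by ATAC-seq in nuclei labelled endothelial (37 libraries) and in input, the nuclei of the whole tissue (29 libraries). Adult mice (12 endothelial and 10 input libraries) and P6 pups (14 and 16) gave 6 organs: the brain, the retina, the heart, the kidney, the liver and the lung. E12 embryos (11 and 3) gave 3: the brain, the heart and the trunk of the body. All nuclei donors, input included, received tamoxifen at 0.015 mg/kg to switch on a GFP reporter in vessels: at E10.5 for embryos, at P1 and P3 for pups, and 7 days before collection for adults. Adult nuclei donors were aged 2 months. The labels call the pups P6 and their protocol P7, and the embryos E12 and their protocol E12.5. The labels used here name neither the alleles that drive the reporter nor a strain. They also do not say whether libraries of a group came from separate animals. The ATAC-seq p-values below therefore measure the spread between libraries, which may be technical. In the single-cell tests each library is a different age. Their p-values measure how the difference between classes varied across ages, with region and dissociation mixed in, and their n counts ages. The nuclear RNA-seq libraries of the series were not used here.

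A barcode was kept with at least 200 genes and at most 10% mitochondrial UMIs (unique molecular identifiers, each a counted transcript), and was called endothelial with a UMI of at least 3 of Cdh5, Pecam1, Egfl7, Esam, Tie1 and Kdr. This left 5644, 6347, 3786, 4778 and 3154 endothelial barcodes from E9.5 to adult, with a median of 4896 to 10469 UMIs. Barcodes with no UMI of the 6 markers numbered 1118, 554, 51, 130 and 176, with a median of 1247 to 6496 UMIs. Endothelial barcodes also held UMIs of other cell types: the summed level of 8 mural markers was 71.4 to 163 CPM (UMIs of the gene per 1000000 UMIs of the library's class) in the embryonic libraries, 531 at P8 and 1388 in the adult, that of 5 erythroid markers 2358 to 14872, and that of 4 epithelial markers 66.3 at E9.5 and at most 3.62 later. The marker-free barcodes differed in kind between ages, with erythroid markers at 193377 CPM at E12.5 and epithelial markers at 646 at E9.5. Mural markers stood at 3980 CPM at P8 and 5440 in the adult, and oligodendrocyte markers at 4045 in the adult. Microglia markers ranged from 94.3 CPM in the E9.5 library to 2303 in the E12.5 library. Astrocyte markers were highest in the P8 library, with 880 CPM, followed by the adult library with 495. Any pair of libraries shared 0 to 50 barcode sequences. Peak lists held 19464 to 144197 peaks.

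In endothelial barcodes a minority of axon guidance genes reached 10 CPM, in a share close to that of all genes. Summed over the 62 genes, the level in order of age was 652, 1113, 1136, 1242 and 2057 CPM. Members at 10 CPM or more numbered 14, 16, 15, 17 and 19, or 22.6% to 30.6% of the set, beside 25.8% to 29.1% of all genes. By the mean over the 5 libraries weighted equally, the 10 highest were Efna1 (143 CPM), Plxnd1 (137), Sema6d (122), Sema7a (98.8), Sema6a (97.3), Sema3c (93), Plxna2 (90.3), Robo4 (84.7), Unc5b (56.8) and Sema3g (44.5). These are counts of transcript ends, so gene length does not enter the order. Each of the 10 varied more between libraries than it differed from its neighbour in this order, so the order itself is loose. Ephb4 and Efnb2, the venous receptor and arterial ligand, had close means of 39.2 and 38.5 CPM. At the other end, Epha6 had 1 UMI in all 5 libraries together, a level no higher than that of Sema4f, Epha8, Unc5d and Slit1, whose means were 0.0174 to 0.067 CPM.

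**Figure D1:**
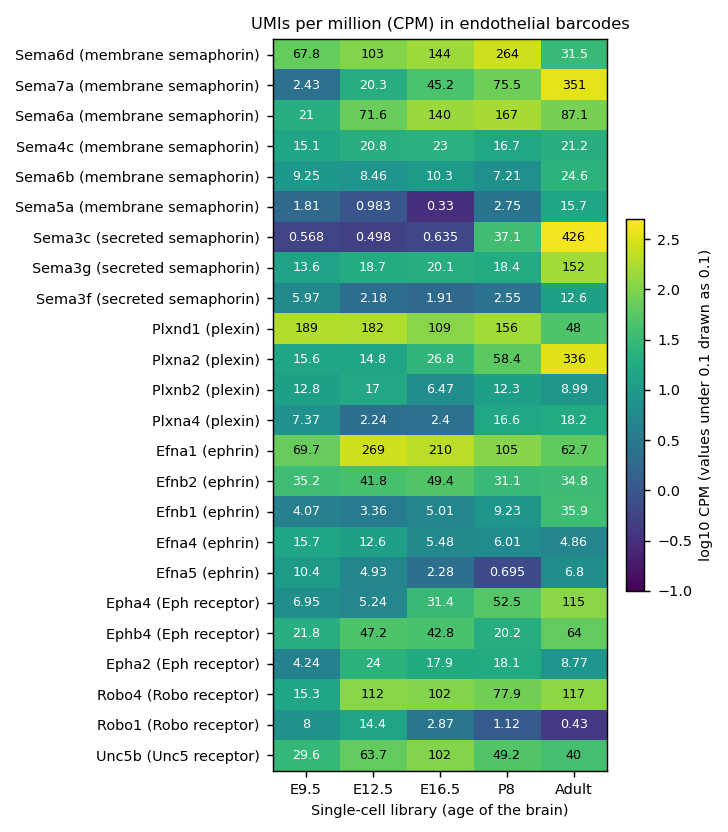
Level of the 24 axon guidance genes that reached 10 CPM in at least 1 library, in endothelial barcodes of each single-cell library (columns), with CPM printed in each cell and coloured on a log10 scale, grouped by family. Sema3c, Plxna2, Sema7a and Sema3g are highest in the adult library, Sema6d at P8, Efna1 at E12.5 and Plxnd1 at E9.5.

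Among the ligands, the secreted semaphorins changed most with age. Their summed level was 27.7, 23.6, 24 and 58.8 CPM from E9.5 to P8 and 591 CPM in the adult library. Sema3c, a secreted semaphorin, stood at 0.568, 0.498 and 0.635 CPM in the embryonic libraries in order of age, 37.1 at P8 and 426 in the adult. Sema3g, a secreted semaphorin of arterial endothelium, was at 13.6, 18.7, 20.1, 18.4 and 152 CPM. Both were highest in the adult library; Sema3c was low in all 3 embryonic libraries, while Sema3g was lowest at E9.5. The lipid-anchored Sema7a was higher in each later library, at 2.43, 20.3, 45.2, 75.5 and 351 CPM. The transmembrane Sema6d went the other way after P8, with 67.8, 103, 144, 264 and 31.5 CPM, and its relative Sema6a had 21, 71.6, 140, 167 and 87.1. The summed level of the ephrins was highest at E12.5 and was carried by Efna1, at 69.7, 269, 210, 105 and 62.7 CPM, while Efnb2 stayed between 31.1 and 49.4 CPM in all 5 libraries.

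Receptors also differed from each other in their course with age. Plxnd1 stood at 189, 182, 109, 156 and 48 CPM, lowest in the adult. Plxna2, a class A plexin that works with neuropilins, stood at 15.6, 14.8, 26.8, 58.4 and 336 CPM. Robo4 was at 15.3 CPM at E9.5 and between 77.9 and 117 from E12.5 on, whereas Robo1, the Slit receptor of many cell types, was highest at E12.5 with 14.4 CPM and lowest in the adult with 0.43. Unc5b peaked at E16.5 with 102 CPM and ranged from 29.6 to 63.7 elsewhere. Ephb4 lay between 20.2 and 64 CPM with no order by age, and Epha4, a receptor for both ephrin classes, had 6.95, 5.24, 31.4, 52.5 and 115. The 3 Slits summed to 4.26 to 12.3 CPM, most of it Slit2.

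With 1 library per age there is no test of age, and ratios are given for genes with at least 20 UMIs in either library, with exact 95% intervals that cover counting error only. Adult endothelial barcodes held at least 2-fold more of 12 members than E12.5 and at least 2-fold less of 20, of 48 compared. Over all 14204 genes compared, 28.3% were that much higher and 27.3% that much lower. Sema3c was 856-fold higher (628 to 1199), Plxna2 22.7-fold (21.3 to 24.1), Epha4 21.9-fold (19.8 to 24.3), Sema7a 17.3-fold (16.4 to 18.2), Sema5a, a membrane semaphorin, 15.9-fold (12.5 to 20.6) and Efnb1, a transmembrane ephrin, 10.7-fold (9.31 to 12.3). Robo1 was 33.4-fold lower in the adult (18.1 to 69.8), and Sema3d 18.5-fold (3.21 to 743), Efna2 12.5-fold (5.27 to 38.9), Sema3a 11-fold (2.94 to 92.4), Ephb2 6.08-fold (0.977 to 251) and Plxnc1 5.11-fold (3.04 to 9.26). Of these, Sema3d and Ephb2 rested on 1 adult UMI each and Sema3a on 2, and the interval for Ephb2 includes 1. Abundant genes were among the lower ones too, Efna1 by 4.3-fold and Plxnd1 by 3.79-fold. Mural markers summed to 71.4 CPM at E12.5 and 1388 in the adult, and 8 of 8 had UMIs in both libraries. Neural markers summed to 118 CPM at E12.5, 370 at P8 and 330 in the adult, a sum that few genes can carry, as given below. Arterial markers summed to 789 CPM at E12.5 and 2052 in the adult. The part of either list in these ratios was not tested. Without barcodes holding 2 or more mural markers, an alternative chosen after the data were seen, the log2 ratio of Sema3c was 10.56 in place of 9.74 and that of Plxna2 4.60 in place of 4.50.

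Between P8 and adult, both from cortex and dissociated alike, 15 of 39 members compared were at least 2-fold higher in the adult and 8 lower, beside 16.4% and 14.9% of 13497 genes. Sema3c was 11.5-fold higher (11 to 12), Efna3 10.7-fold (6.32 to 19), Efna5 9.78-fold (6.92 to 14.1), Sema3g 8.24-fold (7.7 to 8.83), Plxna2 5.75-fold (5.53 to 5.99) and Sema5a 5.7-fold (4.73 to 6.89). Sema6d was 8.39-fold lower (7.79 to 9.05), Robo3 8.08-fold (1.3 to 334, with 1 adult UMI), Slit2 4.1-fold (3.11 to 5.49), Sema3a 4.04-fold (0.987 to 35.5), Plxnd1 3.25-fold (3.06 to 3.46) and Sema4g 2.79-fold (1.52 to 5.6). The share of members at least 2-fold higher in the adult was above that of all genes here, whereas against E12.5 it was close to it. The share at least 2-fold lower in the adult was above that of all genes against both ages. Mural markers summed to 531 CPM at P8 and 1388 in the adult, and arterial markers to 670 and 2052. In endothelial barcodes with arterial markers, described below, Sema3g was at 123 CPM (82 to 178) at P8. In those of the adult it was at 181 (155 to 209). The part of vessel type in these ratios was not tested. Without barcodes holding 2 or more mural markers the log2 ratio of Sema5a was 3.80 in place of 2.51, and that of Sema3c 3.65 in place of 3.52.

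From E9.5 to E12.5, when vessels invade the neural tube, 11 of 52 members were at least 2-fold higher at E12.5 and 13 lower, beside 24.1% and 12.1% of 14193 genes. The share of members higher was thus close to that of all genes, and the share lower was above it. The higher genes by size were Epha3 (64.3-fold, 11.3 to 2563, from 1 UMI at E9.5), Sema7a (8.37-fold, 6.9 to 10.2), Robo4 (7.28-fold, 6.74 to 7.87), Sema4a (5.69-fold, 1.77 to 29.1, from 3 UMIs), Epha2 (5.65-fold, 4.87 to 6.58) and Efna1 (3.86-fold, 3.72 to 4.01). The lower ones were Unc5c (9.97-fold, 6.78 to 15.1), Ephb2 (7.36-fold, 4.53 to 12.5), Sema3a (6.33-fold, 4.9 to 8.28), Slit3 (5.6-fold, 4.09 to 7.78), Sema5b (4.74-fold, 2.23 to 11) and Ephb6 (4.28-fold, 2.34 to 8.21). None of these 6 reached 10 CPM at either age, while the abundant Robo4 and Efna1 were on the higher side. Epithelial markers were at 66.3 CPM at E9.5 and 3.62 at E12.5, erythroid markers at 2358 and 13744, and arterial markers at 343 and 789. Their part in these ratios was not tested.

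Endothelial barcodes were next set against the marker-free barcodes of the same library, with UMIs summed per library and class. Of 62 members 54 passed the filter on low counts, 12 were higher in endothelial barcodes and 13 lower (edgeR quasi-likelihood test with library as a block, adjusted p under 0.05). Over all 15068 genes tested, 10.6% were higher and 10.8% lower, and the median log2 difference was -1.0 for the members against 0.19 for all genes. Among the higher members the largest difference belonged to Robo4, with 15.3, 112, 102, 77.9 and 117 CPM in endothelial barcodes from E9.5 to adult and 1.5, 5.18, 3.55, 5.1 and 8.63 in the others. Each endothelial value of Robo4 was above every other value, and the log2 difference was 4.14 ± 0.25 (SE, n = 5 libraries, edgeR adjusted p = 0.000593). Efna1 was at 62.7 to 269 CPM against 7.65 to 18.3 (log2 3.4, edgeR adjusted p = 0.00128), and Plxnd1 at 48 to 189 against 17.8 to 41.4 (log2 2.44, edgeR adjusted p = 0.00128). Neither pair of groups overlapped. Sema7a (log2 3.72), Sema3g (3.97), Ephb4 (2.58), Unc5b (2.06), Efnb2 (1.82), Sema6a (2.53), Sema6b (2.08), Plxna2 (2.07) and Sema4c (0.93) made up the rest, with edgeR adjusted p from 0.00155 to 0.0449 and a higher endothelial value in 5 of 5 libraries each.

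All 5 vascular markers were thus among the 12, with 4 semaphorins that act from the membrane, 1 secreted semaphorin, Plxna2 and Efna1. Unc5b overlapped between the groups: marker-free barcodes of the adult library held 36.3 CPM, above the 29.6 of endothelial barcodes at E9.5. Sema7a, Sema6a, Plxna2 and Sema4c also overlapped across libraries. The 13 lower members were Sema4b (log2 -2.77, edgeR adjusted p = 0.0054), Epha5 (-4.35, 0.00763), Robo2 (-4.22, 0.00878), Plxnb2 (-2.42, 0.0105), Epha7, Sema3d, Sema4a, Sema4d, Epha3, Ephb2, Sema3b, Unc5c and Plxnb3. As background, Robo2 is a Slit receptor and Epha5 and Epha7 Eph receptors known from neurons, and Sema4d is made by oligodendrocytes. The summed level of 8 neural markers was 129, 89.2, 661, 232 and 245 CPM in marker-free barcodes. In endothelial ones it was 144, 118, 108, 370 and 330, so it was higher in marker-free barcodes at E16.5 alone. Few genes can carry this sum. At P8, endothelial barcodes with arterial markers, described below, summed to 335 CPM with 1 of the 8 genes detected. Microglia markers stood at 94.3 to 2303 CPM in marker-free barcodes and 6.4 to 87.3 in endothelial ones. Astrocyte markers stood at 8.29 to 880 and 2.79 to 18.3. Both lists and oligodendrocyte markers were higher in marker-free barcodes in every library. Their part in the lower members was not tested. Plxnb2 was at 6.47 to 17 CPM in endothelial barcodes and 17.7 to 171 in the others, which did not overlap. At E16.5 the 51 marker-free barcodes gave at most 22 UMIs for any member. Leaving out P8 brought the number of members called from 25 to 14 and leaving out E12.5 to 15. Sema6a lost its call without either of them, Sema6b without P8 or the adult, and Plxnb2 without P8. Over the 5 fits that each left out 1 library, Sema4c and Plxnb3 lost their call in 5, Plxna2, Unc5c and Sema3b in 4, Epha3, Ephb2 and Sema4a in 3, Sema4d in 2 and Sema3d in 1.

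**Figure D2:**
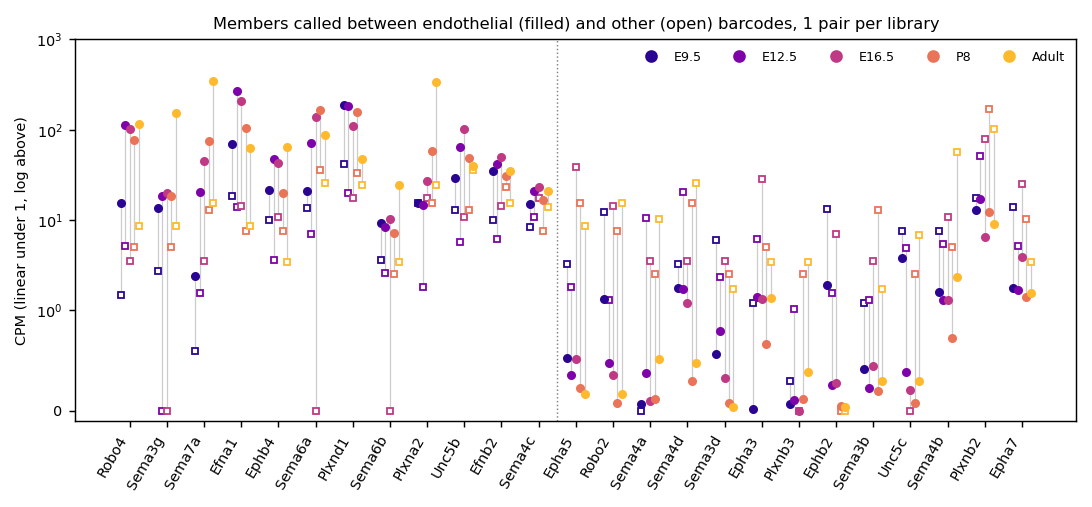
CPM of the 25 members called between endothelial barcodes (filled circles) and barcodes with none of the 6 endothelial markers (open squares), with each library's pair joined by a grey line and coloured by age; the axis is linear under 1 CPM and logarithmic above. Genes left of the dotted line were higher in endothelial barcodes, with Robo4 the most separated, and genes right of it were lower.

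Partners of the set, a list of 39 co-receptors, other ligands and intracellular effectors, were read in the same fit. Of 38 tested, 17 were higher in endothelial barcodes and 5 lower, beside 10.6% and 10.8% of all genes. Arhgef15 (log2 3.24, edgeR adjusted p = 0.00128), an exchange factor that works downstream of ephrin and VEGF signals, Arhgef12 (1.85, 0.00137), which plexins of class B recruit, and Rras (2.24, 0.00155), the small GTPase that plexins act on, led the higher ones. The repulsive guidance molecule Rgma (-2.39, 0.00536) led the lower ones, with Ngef and Srgap3.

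Arterial and venous endothelium was compared next, since Efnb2 and Ephb4 are the textbook pair. Endothelial barcodes with at least 2 of 8 arterial markers and no venous marker were set against those with at least 2 of 9 venous markers and no arterial one, in the 4 libraries with at least 30 barcodes of each: 541 against 818 at E9.5, 88 against 696 at E12.5, 48 against 520 at P8 and 233 against 122 in the adult. These are ranges of a marker count, not cell types, and barcodes with markers of both lists, 2346 to 5267 per library, entered neither. No member is in either list. Summed arterial markers stood at 1070, 2242, 3388 and 1535 CPM in the arterial-marker barcodes, beside 343, 789, 670 and 2052 in all endothelial barcodes, so the adult class was not enriched for them. Summed venous markers stood at 411, 1193, 1790 and 1181 CPM in the venous-marker barcodes, beside 245, 1070, 1684 and 1017, little above all endothelial barcodes after E9.5. Of 30 members tested 4 were higher in arterial-marker barcodes and 0 lower (edgeR quasi-likelihood test), beside 0.973% and 0.324% of 10787 genes; 7 members had an unadjusted p under 0.05.

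Unc5b had the largest difference, with 74.4, 209, 251 and 92.7 CPM in arterial-marker barcodes at E9.5, E12.5, P8 and adult against 6.74, 9.3, 22.3 and 7.52 in venous-marker ones. The groups did not overlap, and the log2 difference was 3.72 ± 0.24 (SE, n = 4 libraries, edgeR adjusted p = 3.18e-05). Sema3g stood at 32.9, 34.6, 123 and 181 CPM against 5.72, 4.74, 3.26 and 11.3 (log2 3.34 ± 0.35, edgeR adjusted p = 0.000887). Efnb2 stood at 81.2, 97.9, 167 and 48.3 CPM against 17.4, 16.9, 12.5 and 20.7 (log2 2.46 ± 0.27, edgeR adjusted p = 0.00138). Both were higher in 4 of 4 libraries without overlap, and Efnb2 differed least in the adult. Efna1 stood at 154, 593, 269 and 53.3 CPM against 35.6, 174, 99.4 and 50.8 (log2 1.44 ± 0.26, edgeR adjusted p = 0.0272); its groups overlapped across ages, the adult values were close, and the call was lost without E9.5 or without E12.5.

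The venous receptor Ephb4 was not called, with 19.6, 40.3, 22 and 56.2 CPM in arterial-marker barcodes and 25, 52.3, 17.8 and 67.7 in venous-marker ones. Robo4 and Plxnd1 were not called either: Robo4 stood at 24.6, 105, 48.5 and 133 CPM against 10.8, 108, 104 and 139, and Plxnd1 at 185, 160, 74.9 and 63.1 against 185, 171, 172 and 58.3. At P8 the arterial-marker value of both was below the venous-marker one, from 11 and 17 UMIs. Of the partner list, Nrp2, the neuropilin of veins and lymphatics, was lower in arterial-marker barcodes (log2 -2.37, edgeR adjusted p = 0.000145), as was Flrt2, a ligand of Unc5 receptors (-2.59, 0.000887). Mural markers summed to 350, 72, 8.81 and 384 CPM in arterial-marker barcodes and 47.3, 34.3, 305 and 912 in venous-marker ones; without barcodes holding 2 or more mural markers the number called was again 4.

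**Figure D3:**
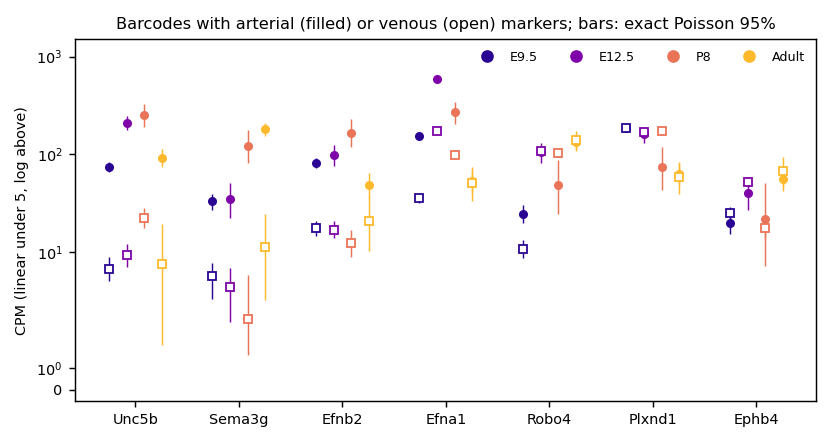
CPM of 7 members in endothelial barcodes with arterial markers (filled circles) and with venous markers (open squares), by library (colour), with exact Poisson 95% intervals as bars; the axis is linear under 5 CPM and logarithmic above. Unc5b, Sema3g and Efnb2 are apart in all 4 libraries, Efna1 in 3, and Ephb4 lies close in each pair.

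Tip cells lead vessel sprouts, and Unc5b and Plxnd1 are known to act in them. Barcodes with at least 2 of 6 tip markers (377, 1951, 1335, 1615 and 50 from E9.5 to adult) were set against endothelial barcodes with none. None of the 49 members tested was called (edgeR quasi-likelihood test), while 10 of 14145 genes were higher (0.0707%) and 0 lower (0%), 12 members had an unadjusted p under 0.05, and DESeq2 called 5. Plxnd1 was at 233, 209, 128, 184 and 58.4 CPM in tip-marker barcodes and 174, 149, 85.9, 119 and 46.9 in the others, higher in 5 of 5 libraries. Sema6d was also higher in 5 of 5, at 105, 138, 197, 307 and 50.3 against 58.9, 71, 79.8, 199 and 28. Unc5b was at 49.8, 84.5 and 120 against 23.4, 33.3 and 68.4 in the 3 embryonic libraries, and at 39.4 and 26 against 76.8 and 41.5 at P8 and in the adult, so that its direction differed between libraries. Tip-marker barcodes were deeper in every library, with a median of 9582 to 22630 UMIs against 4736 to 7860. Mural markers were also higher in them in every library, at 205, 84, 205, 687 and 6646 CPM against 135, 63.5, 69.6, 370 and 750. Without the adult library 3 members were called. With at least 3 tip markers, where the adult library had too few barcodes and dropped out as well, 11 were called. Without barcodes holding 2 or more mural markers, where the adult library also dropped out, members were called too.

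In open chromatin, the start site of Robo4 had a peak within 500 bp in 37 of 37 endothelial lists and in 15 of 29 input lists. By age the input lists with such a peak were 4 of 10 in the adult, 9 of 16 at P6 and 2 of 3 at E12, and by organ 0 of 5 in retina, 2 of 5 in brain, 3 of 5 in kidney, 2 of 4 in liver, 4 of 5 in lung, 4 of 4 in heart and 0 of 1 in E12 trunk. The start sites of the other vascular markers had a peak in nearly every list, Efnb2, Plxnd1 and Unc5b in 37 of 37 endothelial and 29 of 29 input lists and Ephb4 in 37 and 28. Of the 54 members with a listed start, 25.9% had a peak in every endothelial list and 1.85% (Sema3a) in none, beside 41.3% and 27% of all 17492 genes. Sema4a, an immune semaphorin, had a peak in 15 of 37 endothelial and 22 of 29 input lists. Its endothelial lists with a peak were 8 of 8 in brain, 3 of 5 in retina and 1 of 8 in heart. They were 0 of 4 in kidney, 0 of 4 in liver, 1 of 4 in lung and 2 of 4 in E12 trunk. In the same order of organs, the input lists were 5 of 5, 4 of 5, 0 of 4, 5 of 5, 3 of 4, 4 of 5 and 1 of 1.

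The promoters of the 5 vascular markers are shown because the start site of Robo4 differed from the other 4 in input nuclei. Each runs from 250 bases before to 50 bases after the start, 5′ to 3′ on the gene's strand, from RefSeq on GRCm38.p6. Capitals mark GGGCGG, the GC box bound by Sp1, and AGGAAG, a core bound by ETS factors, on either strand (so CCGCCC and CTTCCT are marked too).
Robo4: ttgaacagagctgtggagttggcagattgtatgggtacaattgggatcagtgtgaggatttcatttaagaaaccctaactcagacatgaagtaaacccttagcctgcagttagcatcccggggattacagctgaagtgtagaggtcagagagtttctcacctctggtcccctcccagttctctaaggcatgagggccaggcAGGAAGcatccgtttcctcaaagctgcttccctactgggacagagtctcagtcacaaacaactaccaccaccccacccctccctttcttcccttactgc
Ephb4: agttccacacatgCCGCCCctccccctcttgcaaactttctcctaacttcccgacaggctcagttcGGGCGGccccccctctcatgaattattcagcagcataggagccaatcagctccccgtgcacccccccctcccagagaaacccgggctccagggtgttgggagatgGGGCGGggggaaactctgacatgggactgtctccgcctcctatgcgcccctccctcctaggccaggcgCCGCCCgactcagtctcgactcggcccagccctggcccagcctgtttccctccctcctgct
Plxnd1: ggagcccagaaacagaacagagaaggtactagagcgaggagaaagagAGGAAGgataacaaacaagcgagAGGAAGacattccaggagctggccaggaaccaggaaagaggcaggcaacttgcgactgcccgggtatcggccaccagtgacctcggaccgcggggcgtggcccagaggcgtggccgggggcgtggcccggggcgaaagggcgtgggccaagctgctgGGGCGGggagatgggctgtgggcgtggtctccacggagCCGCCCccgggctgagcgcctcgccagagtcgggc
Efnb2: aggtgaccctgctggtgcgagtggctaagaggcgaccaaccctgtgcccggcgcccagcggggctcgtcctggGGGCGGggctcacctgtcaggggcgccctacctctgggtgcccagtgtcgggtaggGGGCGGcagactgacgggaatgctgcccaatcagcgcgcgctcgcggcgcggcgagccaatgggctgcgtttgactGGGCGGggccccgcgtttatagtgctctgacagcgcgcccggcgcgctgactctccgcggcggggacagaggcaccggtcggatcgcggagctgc
Unc5b: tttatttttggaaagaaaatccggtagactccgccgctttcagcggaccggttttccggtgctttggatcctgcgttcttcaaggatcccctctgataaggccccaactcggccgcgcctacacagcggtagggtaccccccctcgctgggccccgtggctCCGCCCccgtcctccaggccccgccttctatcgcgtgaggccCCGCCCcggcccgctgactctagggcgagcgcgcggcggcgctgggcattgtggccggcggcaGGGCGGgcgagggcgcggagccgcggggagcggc
They lie at chr9:37401722-37402021 (plus strand), chr5:137349859-137350158 (plus), chr6:115994956-115995255 (minus), chr8:8661193-8661492 (minus) and chr10:60831532-60831831 (minus), in that order. The Robo4 window had 2 CpG dinucleotides, 50.3% GC, no GC box and 1 AGGAAG. Those of Ephb4, Plxnd1, Efnb2 and Unc5b had 14, 23, 35 and 36 CpG, 64.7%, 67%, 72.3% and 69.7% GC, 4, 2, 3 and 3 GC boxes, and 0, 2, 0 and 0 AGGAAG. Over the 70 listed windows of 54 members the median was 19 CpG and 64.2% GC, beside 7 CpG and 52.7% over 32851 windows of all genes. A GC box stood in 70% of member windows and 35.7% of all windows, and AGGAAG in 35.7% and 35.4%. These are letter matches and say nothing of binding. The part of CpG content or GC boxes in the start-site peaks was not tested.

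To compare chromatin around genes, the 19464 strongest peaks of every list by −log10 q were counted within 50 kb of each gene, and log2(count + 1) was tested with limma with organ as a term. In bulk nuclei, fewer nuclei of a type and weaker opening in each cannot be told apart. In adult mice 11 members had more strong peaks in endothelial than input nuclei and 3 fewer, of 62 tested, beside 7.98% and 6.96% of 18279 genes. This split rests on the choice of peaks: with all peaks of each list counted 0 were higher and 14 lower, ranked by fold 4 and 3, and around the gene's start only 7 and 1; with the replicate number as a block 2 were called. Sema6a led, with 2 to 9 peaks (median 6) in 12 endothelial libraries and 1 to 5 (median 2) in 10 input libraries (log2 difference 1.11 ± 0.16 SE, limma adjusted p = 0.00105). Ephb4 had 4 to 7 (median 6) against 1 to 7 (median 3), and Plxnd1 3 to 10 (median 7) against 1 to 8 (median 2.5). All 3 pairs of groups overlapped; for Plxnd1 the high input values were lung (8 and 6) and retina (6 and 6), and for Ephb4 retina (7 and 5). Robo4 (log2 0.95, limma adjusted p = 0.00703) and Robo3 (0.94, 0.00578) lie 2021 bp apart and share their window, so they count as 1 locus. The 50 kb windows of Sema3b and Sema3f, of Ephb2 and Epha8, and of Efna1, Efna3 and Efna4 also overlap, so calls of such neighbours are not independent. Sema4c, Sema6d, Efnb2, Plxna2, Sema3b and Sema3d were also higher. Slit3 (log2 -1.44, limma adjusted p = 0.00575), Sema5a (-1.07, 0.00978) and Sema4f (-0.93, 0.0166) were lower: the median of all 3 was 0 in endothelial libraries.

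At P6 16 members were higher and 10 lower of 62 tested, beside 15.3% and 12.3% of 18794 genes, and the split again moved, to 2 higher and 23 lower with all peaks counted, 4 and 8 ranked by fold and 12 and 5 around the start. Plxnd1 led with 2 to 9 peaks (median 7) in 14 endothelial libraries and 0 to 7 (median 1.5) in 16 input libraries (log2 1.56 ± 0.21 SE, limma adjusted p = 1.11e-05). Sema6a (0.76, 0.000185), Robo3 (0.61, 0.000344) with its neighbour Robo4 (0.45, 0.0163), Sema3b, Plxna2, Sema3g, Plxnb1, Sema6d, Unc5b, Sema3f and Ephb4 were higher too, as were Sema4g, Epha2, Epha1 and Efna3. The 50 kb window also takes in peaks near other genes. Within 500 bp of its start, Epha1 had a peak in 2 of 14 endothelial and 12 of 16 input lists. For Sema4g these were 6 and 12, for Epha2 14 and 15, and for Efna3 14 and 14. The lower genes were Efna5 (log2 -0.94, limma adjusted p = 1.71e-05), Sema4f (-1.11, 9.9e-05), Unc5c (-1.02, 0.000104), Sema5a (-1.21, 0.000414), Slit3, Unc5d, Slit2, Slit1, Epha5 and Epha7. Counted within 50 kb of the gene's start only, Slit2 (0.04) and Slit3 (0.19) turned direction. Of fits that each left out 1 library, Slit1 lost its call in 7 of 30, Epha5 in 13 and Epha7 in 17, and in the adult Plxna2 lost its call in 7 of 22 and Sema3b in 8. Sema5a and Slit3 had fewer endothelial peaks at both ages; in brain endothelial barcodes Slit3 was at 0.811 CPM at P8 and 1.85 in the adult, and Sema5a at 2.75 and 15.7. With all peaks of each list counted, Plxna2 and Sema4c in the adult and Plxna2, Sema6d, Robo3 and Plxnb1 at P6 turned to fewer endothelial peaks. Ranked by fold, Sema3b, Sema3f and Epha7 turned direction at P6.

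At E12, with only 3 input libraries, 5 members were higher and 9 lower of 60 tested, beside 9% and 6% of 17927 genes; with all peaks counted 0 were higher and 8 lower, and ranked by fold 2 and 6. Plxnd1 had 3 to 6 peaks in 11 endothelial libraries and 0, 1 and 0 in the input libraries of brain, heart and trunk, with no overlap (log2 1.89 ± 0.2 SE, limma adjusted p = 0.000116). It was the one member called higher at all 3 ages by this count; ranked by fold enrichment in place of −log10 q, its E12 difference was -0.07. Plxna4 had 3 to 8 peaks against 0 to 2 (log2 1.51, limma adjusted p = 0.000413), and Sema4d (0.77, 0.00254) and Unc5b (0.4, 0.0436) were higher. Plxna4 and Unc5b turned to fewer endothelial peaks with all peaks counted, at -0.71 and -0.3, and the Unc5b call was lost in 12 of 14 fits that each left out 1 library. Sema3c, which has few transcripts in embryonic brain endothelium, had 0 to 1 peaks against 2 to 6 (log2 -1.72, limma adjusted p = 0.00363). Within 500 bp of its start, however, Sema3c had a peak in 11 of 11 E12 endothelial and 3 of 3 E12 input lists. In adult endothelial lists it had one in 8 of 12. Sema4a, Plxna1, Ephb3, Epha3, Robo1, Sema3e and Robo2 were lower as well; Robo2 lost its call in 9 of 14 fits that each left out 1 library, Robo1 and Sema3e in 2 each and Epha3 in 1. Sema6c (5 peaks in every endothelial and 4 in every input library) and Epha7 (1 and 3) were called with no spread within either group, so their p-values are not given.

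**Figure D4:**
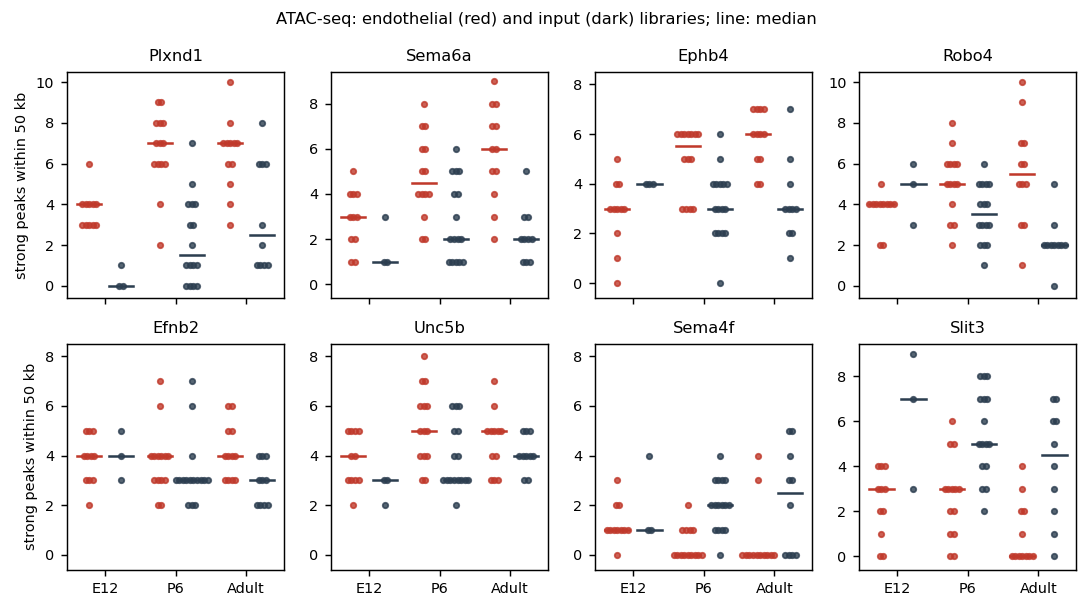
Number of strong ATAC-seq peaks within 50 kb of 8 members in each endothelial (red) and input (dark) library at E12, P6 and adult, with a line at each median. Plxnd1 is above input at all 3 ages with no overlap at E12, and Sema4f and Slit3 have fewer endothelial than input peaks at P6 and in the adult; only the strongest peaks of each list are counted.

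Of the partner list, 6 genes had more strong peaks in adult endothelial nuclei and 2 fewer, 9 and 3 at P6, and 6 and 1 at E12, of 37 to 39 tested. The shares of all genes were 7.98% and 6.96%, 15.3% and 12.3%, and 9% and 6%.

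Single regions near the members were then listed that had a peak in at least 75% of endothelial and at most 25% of input lists of an age. In the adult 6 of 1983 regions near members passed (0.303%, beside 0.283% of all 233184 regions) and at P6 13 of 3359 (0.387%, beside 0.548% of 377662), so members were close to the background and these regions are a description. Near Sema3g, chr14:31168162-31169170 had a peak in 11 of 12 adult endothelial and 1 of 10 input lists. Inside Efnb2, chr8:8623372-8624363 was in 11 and 2, and near Sema3b chr9:107628670-107629386 in 11 and 2. Inside Ephb4, 1892 bp from its start, chr5:137352001-137352380 was in 9 of 12 adult endothelial lists against 1 of 10 and in 12 of 14 at P6 against 3 of 16. Upstream of Plxnd1, 10618 bp from its start, chr6:116005623-116006159 was in 9 against 1 in the adult and 11 against 1 at P6. Near Efna1, chr3:89262412-89262940 was in 10 against 2. At P6 chr6:115905166-115906020 near Plxnd1 and chr9:107566784-107567992 near Sema3b were in all 14 endothelial lists and 4 of 16 input lists. The Sema3g region chr14:31227970-31228726 and chr9:57931022-57931822 near Sema7a were each in 13 and 3, and chr8:8636341-8637250 inside Efnb2 in 11 and 1. Coordinates are on mm10.

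Between ages the result depended on how peaks were counted: of 62 members 4 were called between adult and P6 by the strongest peaks, 11 when these were ranked by fold, and 58, all lower in the adult, with all peaks counted. By the strongest peaks, against P6, adult libraries had more strong peaks at 1 member, Sema4c (log2 0.33, limma adjusted p = 0.00725), and fewer at 3, Ephb6 (-0.58, 0.0145), Sema6d (-0.59, 0.038) and Unc5b (-0.17, 0.0434), of 62, beside 4.55% and 3.27% of 18028 genes. Sema6d is also the gene whose transcripts were 8.39-fold lower in adult than P8 brain. Its peak counts in brain endothelium were 2 and 2 in the adult and 4, 1 and 4 at P6, and the call was lost in 13 of 26 fits that each left out 1 library, as was that of Unc5b in 18. With peaks ranked by fold Ephb6 (0.16) and Unc5b (0.21) turned direction, and with all peaks counted Sema4c did (-0.43). Sema3c, with the largest transcript difference, was not called. Between P6 and E12 in brain and heart, 0 members were higher and 1 lower, Sema4d (-0.53, limma adjusted p = 0.0425), of 60, beside 2.05% and 1.96% of 17691 genes. That call was lost in 10 of 12 such fits.

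Endothelial libraries were also compared between organs. Brain and retina, as central nervous system (CNS) organs, were set against heart, kidney, liver and lung. In the adult 14 members had more strong peaks in CNS endothelium and 11 fewer, of 62, beside 23.7% and 11.3% of 18279 genes; the contrast is about these 6 organs. With all peaks counted 11 were higher and 0 lower, and ranked by fold 10 and 5. Sema6d had 2 and 2 peaks in brain and 0 and 0 in retina, against 6 and 6 in heart, 5 and 5 in kidney, 6 and 5 in liver and 6 and 6 in lung. The groups did not overlap (log2 difference -1.93 ± 0.16 SE, limma adjusted p = 5.06e-06). Input libraries had 0 to 3 against 0 to 4, and the endothelial difference minus the input one was -1.65 (limma adjusted p of this interaction = 0.00113). These peaks lie over a gene of 577847 bp and its flanks. Within 500 bp of its start, Sema6d had a peak in 0 of 12 adult endothelial and 1 of 10 adult input lists. Plxna4, a receptor for class 3 and class 6 semaphorins, had 4 and 4 in brain and 0 and 1 in retina against 6 to 8 elsewhere (log2 -1.56 ± 0.2 SE, limma adjusted p = 0.000225). For Plxna4 the interaction was not called (-0.82, 0.128).

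Plxnd1 had 4 and 3 peaks in brain and 6 and 6 in retina against 5 to 10 in the other organs, so that retina overlapped them (log2 -0.54 ± 0.09 SE, limma adjusted p = 0.00127). Input nuclei showed the opposite difference at Plxnd1 (0.45, 0.0115), and the interaction was -0.99 (limma adjusted p = 0.00117). With all peaks counted the endothelial difference at Plxnd1 was 0.06. Sema6a (-0.86, 0.00198), Epha2, Sema3d, Ephb1, Epha1, Sema4c, Sema6b and Sema3g were the other genes lower in the CNS. Over 22 fits that each left out 1 library, Sema4c lost its call in 4, Sema6b in 3 and Epha1 in 1. With all peaks counted, Epha1 and Sema6b turned direction. Sema3d had 2 and 2 in brain, 0 in retina, heart and lung, and 5 to 6 in kidney and liver, so its call rests on kidney and liver. Higher in the CNS were Sema4f (1.08, 3.11e-07), Epha5 (1.15, 1.57e-06), Sema4a, Epha8, Epha10, Unc5d, Efnb3, Plxna3, Ephb2 and Slit1, and 4 more. Epha5, a neuronal receptor, had 1 or 2 peaks in CNS endothelial libraries and 0 in all 8 others, and input libraries had 1 in each CNS and 0 in each other organ. Sema4f had 3 and 4 in retina and 0 in brain and in all other organs. Counts at both genes were small with little spread within an organ, so their p-values do not rank them above the other genes. Of the 25 genes called, 14 were also called in the same direction in input nuclei, and for 9 the endothelial and input differences were called different. Over all 62 members, input nuclei had 14 called higher and 8 lower in the CNS, beside 18% and 11.7% of all genes, and 13 had a called interaction, beside 7.48% of all genes above 0 and 5.04% below.

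**Figure D5:**
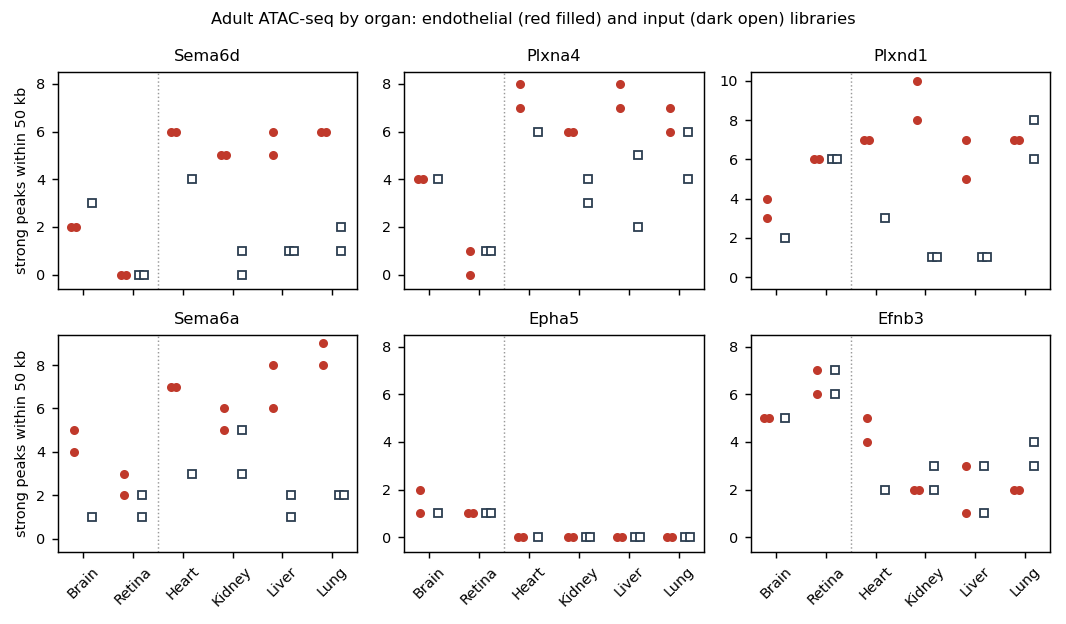
Strong ATAC-seq peaks within 50 kb of 6 members in each adult library, by organ, for endothelial (red filled circles) and input nuclei (dark open squares); the dotted line divides CNS from peripheral organs. Sema6d and Plxna4 have fewer endothelial peaks in brain and retina than in each other organ, Epha5 is above 0 in brain and retina alone, and Efnb3 overlaps between brain and heart endothelium.

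At P6 13 members were higher in CNS endothelium and 7 lower of 62, beside 19.7% of 18794 genes higher and 30.1% called in either direction. Sema6d was again lower, with 4, 1 and 4 peaks in brain and 2, 3 and 2 in retina against 7 and 7 in heart, 5 and 4 in kidney, 8 and 8 in liver and 12 and 11 in lung (log2 -1.26 ± 0.32 SE, limma adjusted p = 0.00614); the highest brain values met the lower kidney value. At P6 the interaction with input was not called for Sema6d (-0.9, limma adjusted p = 0.174). Plxna4 (-0.91, 0.00329), Sema3g, Epha2, Sema4c, Sema3d and Sema6b were lower, and Epha10 (0.64, 4.28e-06), Unc5c (1.01, 0.000146), Epha3 (1.28, 0.000167) and Slit1 (1.32, 0.000739) led the higher genes, with Sema4a, Plxna1, Sema4f, Sema4b, Plxna3 and Plxnb1. With all peaks counted 11 members were higher and 0 lower, with Plxna4 at 0.01 and Sema6b at 0.22, and ranked by fold Sema3g was at 0.2. Sema6b lost its call in 9 of 30 fits that each left out 1 library and Sema4c in 7. Sema3d lost it in 4, Epha2, Sema3g and Plxnb1 in 3 each, and Plxna3 in 1. Sema4b and Plxna3 turned direction with all peaks counted, and Plxnb1 with peaks ranked by fold. Of the 18 genes called higher at either age 9 were called at both, and of 11 called lower 7 were. In input nuclei 4 of the 20 P6 calls were made in the same direction, and 4 differed from input. Over all 62 members, 10 were called higher and 4 lower in input nuclei, beside 27.8% of all genes called in either direction and 17.2% called lower, and 7 had a called interaction, beside 12.7% above 0 and 4.65% below. Without the second brain or the second retina endothelial library 12 members were called.

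The alignment files named in the headers came in 4 naming kinds that largely follow organ: brain and heart mostly had a kind each, kidney and liver shared one, and lung and retina another. What these names stand for is not given, and organ and naming kind cannot be fully told apart. With the kind as a further term the number of P6 members called went from 20 to 4, and Sema6d (-0.88, limma adjusted p = 0.37) and Plxna4 (-0.90, 0.148) kept their direction but not their call. Within the kind that lung and retina share, adult Sema6d had 6 and 6 peaks in lung and 0 and 0 in retina, Plxna4 7 and 6 against 0 and 1, Sema6a 8 and 9 against 2 and 3, and Plxnd1 7 and 7 against 6 and 6. At P6 the first and second brain endothelial libraries were of this kind as well, and Sema6d had 4 and 1 peaks there and 2, 3 and 2 in retina, against 12 and 11 in lung.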

How the data were processed

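The 62 genes were matched by a rule on symbols; that rule, the marker lists, the partner list and the tests were chosen with earlier results of these data known. Single-cell UMI counts were deposited by the authors as gene by barcode matrices made with Cell Ranger, version 4.0.0 per the file headers of 3 libraries; the E16.5 matrix names no genes of its own and was read in the row order of the others. ATAC-seq peaks were called per library with MACS2 2.1.2 in broad mode without control, shift -100 and extension 200, on mm10, per the file headers. The deposited lists give each peak's pileup signal, fold enrichment ratio and −log10 p and q values, all the authors' own. Aligner and filters are only partly given: the submitters' processing notes name Bowtie2, SAMtools, Picard and DiffBind. Salmon transcript tables of 54 nuclear RNA libraries were not used here.

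UMIs were summed per library and barcode class and tested with edgeR 4.0.16 (TMM, filterByExpr, library as block); DESeq2 1.42.0 was an alternative. Doublets were not called. The 19464 strongest peaks per list were counted in each gene's span with 50 kb on either side and tested with limma 3.58.1 on log2(count + 1), with genes kept that had a peak in at least 3 libraries. Benjamini-Hochberg adjustment ran over all genes tested, with a threshold of 0.05. The text names the 5 markers, the 10 members of highest mean level, up to 10 called members per direction by adjusted p, up to 6 per direction by fold between ages, up to 6 selective regions per age, and up to 3 called partners per direction; further members were named after their values were seen. Intervals are exact Poisson at 95% and cover counting error only. Depth was 23250196 to 80364390 endothelial UMIs per single-cell library, and 10.1 to 59.1 M tags per peak list. The scripts were tested on simulated data. Alternatives were the filter, normalization, marker thresholds, peak ranking, window, leaving out each library, and, added after the data were seen, leaving out barcodes with 2 or more mural markers.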

Additional observations from a re-analysis of the deposited data

Results flagged for a closer look

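For 9 named members, 5 in the adult and 4 at P6, the CNS-to-peripheral difference in strong peaks differed between endothelial and input nuclei by the limma interaction term, given as the endothelial log2 difference minus the input one. In the adult the values were -1.65 for Sema6d, -0.99 for Plxnd1, -0.96 for Sema3d, -0.83 for Epha10 and -1.62 for Ephb1. At P6 they were 1.08 for Plxna1, 0.86 for Epha3, 0.5 for Plxna3 and 0.31 for Plxnb1.

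Single libraries stood apart by Dixon's criterion in 9 of 28 gene and group combinations. In each the 3 other libraries were tied and the difference was 1 peak, so any difference meets the criterion and its usual chance rate of about 1 in 20 does not apply. In E12 heart endothelium a library had 3 strong peaks at Ephb3 against 2, 3 at Robo2 against 4, 1 at Sema3e against 0, 4 at Sema4a against 5 and 2 at Unc5b against 3. In E12 trunk endothelium a library had 2 at Ephb3 against 1, 4 at Plxnd1 against 3, 1 at Sema3c against 0 and 3 at Sema4d against 4.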

How the results depend on the processing

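Of 149 gene and comparison pairs named, values under the alternatives kept direction and call in 2817 cases, lost the call in 333 and reversed in 29. Ranges over fits that each left out 1 library were 14 to 23 members called for endothelial against marker-free barcodes, 3 to 4 for arterial against venous markers and 0 to 3 for tip markers. For chromatin they were 11 to 16 for endothelial against input in the adult, 21 to 27 at P6 and 10 to 15 at E12, 2 to 5 for adult against P6, 0 to 1 for P6 against E12, 19 to 27 for the CNS in the adult and 12 to 26 at P6. Selective regions ranged from 4 to 10 in the adult (10 without the first heart input library) and 8 to 22 at P6 (22 without the first brain endothelial library).

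Tip markers gave 0 members called, but 3 with no filter, 5 with DESeq2, 11 with at least 3 markers and 8 without barcodes of mural markers; the last pair of fits also lost the adult library, which had too few barcodes, and leaving out that library alone gave 3. Endothelial against input gave, ranked by fold, 7 in the adult (14 in the report), 12 at P6 (26) and 8 at E12 (14); with peaks counted within 50 kb of the start only, 8, 17 and 9; and at E12 with all peaks, 8. Adult against P6 gave 58 with all peaks, 11 by fold and 2 around the start (4 in the report). P6 against E12 gave 0 with all peaks, 2 by fold and 0 with the file naming kind as a term (1). CNS against peripheral gave 11 with all peaks and 15 by fold in the adult (25). At P6 it gave 11 with all peaks and 4 with the file naming kind (20). Adult selective regions were 11 among the strongest peaks (6). The term for the naming kind could not be fitted for endothelial against input at E12 and was not run. The causes of these shifts were not tested. The labels do not tie replicate numbers to animals. Deviations of same-numbered endothelial and input libraries correlated at -0.13 to 0.12 in the adult (2 of 8 pairs above 0.1). At P6 the range was -0.16 to 0.085 (0 of 12). For adult against P6 it was -0.077 to 0.027 (0 of 12), and for P6 against E12 -0.04 to 0.16 (2 of 5). With the replicate number as a block the counts were 2, 17 and 3 for endothelial against input (adult, P6, E12). They were 1 for adult against P6, 0 for P6 against E12, and 26 and 16 for the CNS contrasts.

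Reversed with all peaks counted: endothelial against input in the adult, Sema4c -0.07 and Plxna2 -0.2; at P6, Plxna2 -0.4, Sema6d -0.03, Robo3 -0.14 and Plxnb1 -0.15; at E12, Plxna4 -0.71 and Unc5b -0.3. Adult against P6, Sema4c was -0.43. In the CNS contrast Epha1 was 0.17, Plxnd1 0.06 and Sema6b 0.28 in the adult, and Plxna4 0.01, Sema4b -0.01, Sema6b 0.22 and Plxna3 -0.02 at P6. Reversed when ranked by fold: Epha7 0.06, Sema3b -0.09 and Sema3f -0.05 at P6 against input, Sema6c -0.35, Plxnd1 -0.07 and Unc5b -0.39 at E12, Ephb6 0.16 and Unc5b 0.21 for adult against P6, Sema4d 0.12 for P6 against E12, and Plxnb1 -0.13 and Sema3g 0.2 in the P6 CNS contrast. Counted within 50 kb of the start only, Slit2 was 0.04 and Slit3 0.19 at P6 against input. Depth limits the single-cell values of rare members, and small peak counts limit the chromatin differences.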
